A study of Homo sapiens with 6 samples.

Results

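The regions described here are the peaks of the IgG control libraries, 1 library for each siRNA state, in a CUT&RUN study of CENP-A. All IgG peaks on autosomes 1 to 22 were taken, without chromosome 10 from 60 Mb on, where the lists held 5.02 and 9.23 peaks per Mb with siNeg and siDNAJC9. This left 9840 of 11060 IgG peaks: 3713 of 4156 in the siNeg list and 6127 of 6904 in the siDNAJC9 list, out of 33656 peaks in the 6 lists of the series. The territory covered 2821 Mb, where each chromosome was taken to end at the last position of any peak in the 6 lists.

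The cells were hTERT-RPE1-Tet-GFP-CENP-A, a retinal pigment epithelial line immortalized with telomerase that carries a GFP-tagged CENP-A transgene under the control of doxycycline (DOX). They received a negative control siRNA (siNeg) or an siRNA against DNAJC9 (siDNAJC9), and after 48 h both groups were given 1 µg/ml DOX for a further 48 h, so the transgene was induced in every library. For each siRNA the data hold 1 IgG library, numbered replicate 2, and 2 CENP-A libraries, numbered replicates 1 and 3, and nothing here checks the depletion of DNAJC9. Broad peaks had been called by the authors for each library against a further IgG library of the same siRNA, as the names of the lists show, and that library was not analysed here.

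CUT&RUN uses an antibody on permeabilized cells or nuclei to tether a micrococcal nuclease to chromatin, which then cuts and releases the DNA around it. An IgG antibody has no intended target, so its library records where the nuclease cuts or fragments are recovered without a specific antibody, and such background is known to favor accessible chromatin. CENP-A is the histone H3 variant that marks centromeres, and DNAJC9 is a chaperone of histones H3–H4. The lists give positions and nothing on height or reads, which means that a region is listed or not and that the depth of the libraries is unknown. With 1 IgG library per siRNA, differences between the lists had no replicate check and no test, and the siRNA cannot be told apart from the library.

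The siDNAJC9 IgG list was longer, denser and more unevenly spread than the siNeg IgG list. It covered 36.5 Mb against 21.1 Mb, a ratio of 1.73, which is 1.29% and 0.748% of the territory. Peaks stood at 2.17 per Mb with siDNAJC9 and 1.32 per Mb with siNeg.

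Individual peaks had nearly the same size in both lists. The median width was 5 kb in each, which is also the narrowest width present, and the mean was 5.68 kb with siNeg and 5.96 kb with siDNAJC9. Peaks of exactly 5 kb made up 62.8% of the siNeg list and 56.4% of the siDNAJC9 list. The lists separated in the wide tail: 17 siNeg peaks and 100 siDNAJC9 peaks were wider than 10 kb, and the 99th percentile was 9 and 12 kb. Peaks of at least 7 kb numbered 672 (18.1%) and 1494 (24.4%). The CENP-A peaks of the same territory were wider, with medians of 9 kb in both siNeg libraries and of 7 and 6 kb in siDNAJC9 replicates 1 and 3. These lists differ in place: 68.4% and 85.4% of siNeg CENP-A peaks lay in the 5-Mb centromeric windows defined further on. The share was 5.21% and 5.85% for siDNAJC9 CENP-A, and 1.08% and 1.40% for siNeg and siDNAJC9 IgG. Widths were not compared outside these windows.

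The widest siNeg IgG peak spanned 17 kb on chromosome 17 (12971001 to 12988000; all positions are on T2T-CHM13v2.0 and counted from 1), and 4 of 14 kb followed on chromosomes 1, 1, 12 and 14. None of these 5 regions held a siDNAJC9 IgG peak. The widest siDNAJC9 peaks spanned 32 kb (2134001 to 2166000) and 28 kb (16405001 to 16433000), both toward the start of chromosome 1. Peaks of 20 kb on chromosome 10 (6210001 to 6230000), 19 kb on chromosome 5 (664001 to 683000) and 19 kb on chromosome 22 (9650001 to 9669000) came next. Genes at these places are not named, because no annotation of this build was used here.

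Spacing differed far more than width. The median gap from a peak to the next was 454 kb with siNeg and 202 kb with siDNAJC9, a ratio of 0.445. Part of this goes with the larger number of siDNAJC9 peaks. The territory divided by the number of peaks gave a mean spacing of 760 kb with siNeg and 460 kb with siDNAJC9. The shift ran through most gap lengths. Gaps of at most 20 kb numbered 99 (2.68% of gaps) with siNeg and 580 (9.50%) with siDNAJC9. Gaps over 1 Mb numbered 897 (24.3%) with siNeg and 687 (11.3%) with siDNAJC9. The lowest decile of gaps was 67 kb with siNeg and 22 kb with siDNAJC9, and the highest decile 1674 and 1094 kb, so the short end differed more than the long end. The SD of the gaps over their mean was 1.44 and 1.86.

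**Figure D1:**
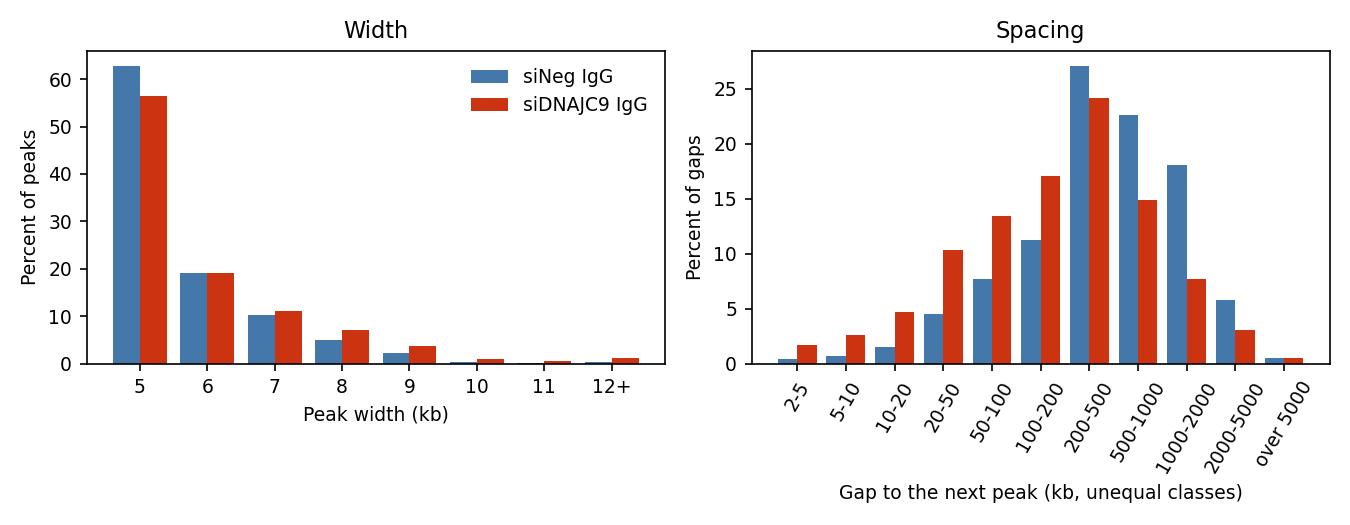
Left, percent of peaks (y) at each width in kb (x); right, percent of gaps between neighboring peaks (y) in classes of gap length in kb (x, unequal classes), for siNeg (blue) and siDNAJC9 (red) IgG, 1 library each. Widths pile up at 5 kb in both lists (62.8% and 56.4%), while the siDNAJC9 gaps are shifted toward short classes, with a median of 202 kb against 454 kb.

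Many siDNAJC9 peaks lay in runs. When peaks up to 50 kb apart were put in the same run, 86.5% of siNeg peaks stood alone, against 66.6% of siDNAJC9 peaks. A list with more peaks has fewer single peaks and more runs at a fixed limit even with random placement. The values here were not corrected for that. Runs of at least 3 peaks numbered 23 with siNeg, holding 71 peaks (1.91%), and 215 with siDNAJC9, holding 781 peaks (12.7%). Runs of at least 5 peaks numbered 0 with siNeg and 26 with siDNAJC9. The longest siNeg runs had 4 peaks, on chromosome 11 (91801001 to 91913000) and chromosome 17 (10711001 to 10819000). The longest siDNAJC9 runs had 12 peaks in 335 kb on chromosome 19 (18781001 to 19116000) and 10 peaks in 337 kb on chromosome 22 (9379001 to 9716000).

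Clustering was then measured at the 1-Mb scale. In 2821 windows of 1 Mb, the variance of the number of peaks over its mean, which is 1 for peaks placed evenly at random, was 1.16 for siNeg IgG and 2.74 for siDNAJC9 IgG. After each window was taken relative to its own chromosome's mean, the values were 1.14 and 2.39. The larger value for siDNAJC9 was therefore present within chromosomes as well as between them. This ratio grows with the number of peaks, so the excess of the variance over the mean was also divided by the squared mean, which gave 0.121 and 0.806 over all windows. For the siDNAJC9 CENP-A lists of the same territory, centromeres included, the variance over the mean was 3.79 and 3.33.

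Although the siDNAJC9 list had 2414 more peaks, it left nearly as many windows empty, 740 (26.2%) against 848 (30.1%). The excess lay in full windows. At least 5 peaks were found in 50 windows with siNeg and in 368 with siDNAJC9, and at least 10 peaks in 1 window with siNeg and in 56 with siDNAJC9. The fullest 10% of windows held 28.9% of siNeg peaks and 35.6% of siDNAJC9 peaks. Neighboring windows of a chromosome resembled each other little with siNeg (r = 0.13) and more with siDNAJC9 (r = 0.449), given as a description over windows that share a library.

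**Figure D2:**
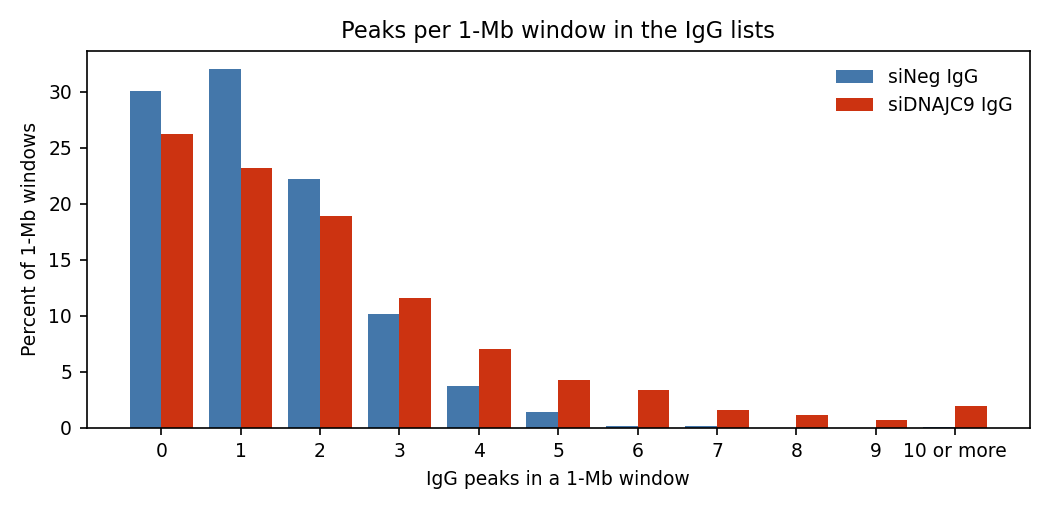
Percent of the 2821 windows of 1 Mb (y) that hold a given number of IgG peaks (x, the last class is 10 or more) in the siNeg (blue) and siDNAJC9 (red) lists, 1 library each. The classes of 0 differ little (30.1% and 26.2%), whereas windows with at least 10 peaks number 1 with siNeg and 56 with siDNAJC9.

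The windows with the most peaks lay in different places in the lists. With siNeg the fullest was on chromosome 3, from 61000001 to 62000000, with 11 peaks, and the same window held 6 siDNAJC9 peaks. The next, of 7 peaks each, were those starting at 10000001 on chromosome 17, 62000001 on chromosome 3, and 46000001 and 13000001 on chromosome 12, with 0, 6, 2 and 2 siDNAJC9 peaks. With siDNAJC9 the fullest window was chromosome 17 from 82000001 to 83000000, close to the chromosome end, with 22 peaks against 1 with siNeg. The window starting at 18000001 on chromosome 19 held 20 peaks against 1, and that starting at 1000001 on chromosome 16 held 19 against 0. Those starting at 1000001 and 3000001 on chromosome 19 held 18 against 2 and 15 against 0. These 5 windows held at most 2 peaks in any CENP-A list.

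The lists were also compared window by window on log2 of kb covered + 5, a scale that understates the change of sparse windows. Of all windows, 934 (33.1%) were at least 2-fold higher with siDNAJC9 and 533 (18.9%) at least 2-fold lower. When both lists were scaled to the same total length the split was 513 higher and 700 lower, so the balance of directions depends on that choice. On chromosomes 16, 17, 19 and 22, the gene-rich class, chosen with earlier results of these data known, 164 of 293 windows (56.0%) were higher and 25 (8.53%) lower. On chromosomes 4, 13 and 18, the gene-poor class, 87 of 386 (22.5%) were higher and 120 (31.1%) lower. After scaling, the gene-rich class had 110 windows (37.5%) higher and 30 (10.2%) lower, and the gene-poor class 45 (11.7%) higher and 139 (36.0%) lower. The gene-rich class thus stood above the share over all windows under both choices, and the gene-poor class below it.

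The largest excess in siDNAJC9 was in the window starting at 1000001 on chromosome 16, with 0 kb under siNeg and 131 kb under siDNAJC9 peaks (log2 difference 4.77), and then in that starting at 3000001 on chromosome 19, with 0 and 110 kb (4.52). Windows starting at 2000001 on chromosome 1 (0 and 95 kb), 94000001 on chromosome 16 (0 and 93 kb) and 4000001 on chromosome 19 (0 and 87 kb) followed. All 5 lay within 5 Mb of a chromosome end. Differences in the other direction were smaller. They were led by the window starting at 10000001 on chromosome 17, with 38 kb under siNeg and 0 kb under siDNAJC9 peaks (log2 difference -3.10). Windows starting at 91000001 on chromosome 11 and 5000001 on chromosome 18 held 35 and 0 kb each, that starting at 143000001 on chromosome 2 held 33 and 0 kb, and that starting at 167000001 on chromosome 5 held 32 and 0 kb.

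Across whole chromosomes the siNeg list was close to even. Its density ran from 5.25 kb per Mb on chromosome 9 to 9.04 kb per Mb on chromosome 3, a ratio of 1.72, and the SD over the mean of the 22 autosomes was 0.145. The siDNAJC9 list ran from 7.52 kb per Mb on chromosome 13 to 36.9 kb per Mb on chromosome 19, a ratio of 4.90, with an SD over the mean of 0.504. To make peaks proportional to chromosome length, 5.54% of siNeg peaks and 12.6% of siDNAJC9 peaks would have to lie on another chromosome.

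Chromosome 19 held 66 siNeg peaks and 368 siDNAJC9 peaks, and its covered length was 6.01 times larger with siDNAJC9. Chromosome 22 came next, at 6.86 kb per Mb with siNeg and 27.1 with siDNAJC9, a ratio of 3.95. The ratio was 3.18 on chromosome 20 (6.57 to 20.9 kb per Mb), 3.17 on chromosome 17 (8.93 to 28.3) and 3.05 on chromosome 16 (6.33 to 19.3). These 5 chromosomes were the 5 densest with siDNAJC9, and with siNeg only chromosome 17 was among the 5 densest. Chromosomes 13 (7.52), 4 (7.66), 2 (8.95), 6 (9.77) and 5 (9.86) were the 5 lowest with siDNAJC9, in kb per Mb. The siDNAJC9 list was denser on 21 of 22 autosomes, the exception being chromosome 4, at 8.33 kb per Mb with siNeg and 7.66 with siDNAJC9.

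Human chromosomes differ widely in how many genes they carry per Mb, with chromosome 19 the richest and chromosomes 13, 18 and 4 among the poorest. Protein-coding genes per Mb, counted by chromosome in RefSeq on GRCh38.p14 and divided by the lengths used here, were set beside the densities of 21 autosomes, without chromosome 10. Spearman's rho was -0.0052 for the siNeg list and 0.877 for the siDNAJC9 list, and 0.716 for the ratio of the lists. The rho between the lists over the 22 autosomes was -0.0977. These are descriptions over chromosomes that share 1 library per list, and GC content, which was not measured here, goes with gene density.

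**Figure D3:**
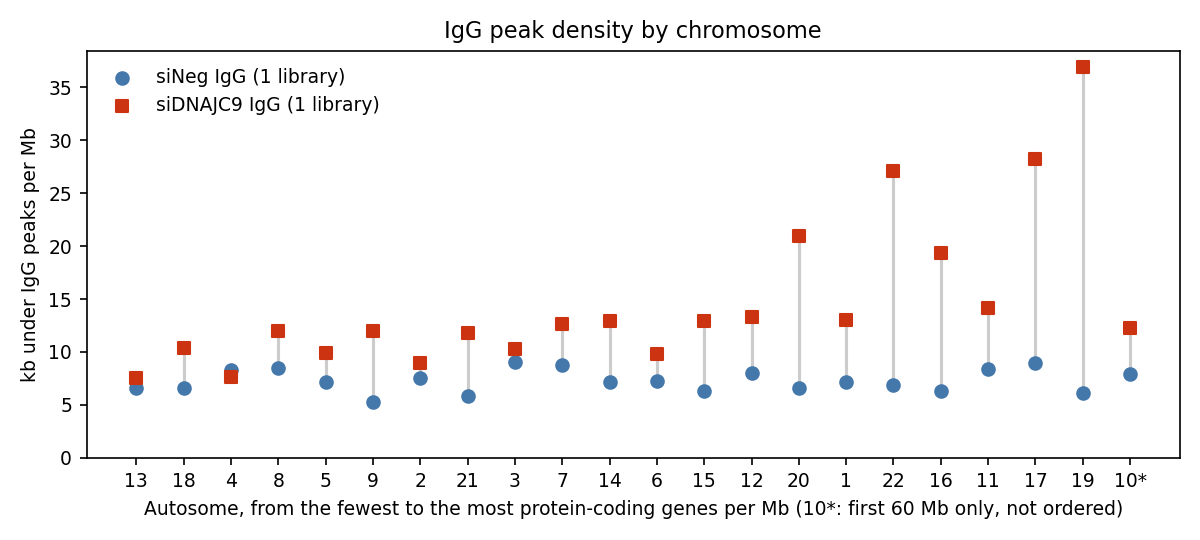
IgG peak density in kb covered per Mb (y) for each autosome (x, ordered by protein-coding genes per Mb, chromosome 10 up to 60 Mb placed last), siNeg circles and siDNAJC9 squares, 1 library each. The siNeg points stay between 5.25 and 9.04 kb per Mb, while the siDNAJC9 points reach 36.9 kb per Mb on chromosome 19, and chromosome 4 is the only autosome with the siDNAJC9 point below the siNeg point.

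By class, the gene-rich chromosomes stood at 7.13 kb per Mb with siNeg and 26.9 with siDNAJC9, a ratio of 3.78. The gene-poor chromosomes stood at 7.47 and 8.18 kb per Mb, a ratio of 1.09. The gain was thus larger in the gene-rich than in the gene-poor class, but single chromosomes did not all follow gene density. Chromosome 11 has 9.63 protein-coding genes per Mb, above chromosomes 16 (8.89) and 22 (8.82). It was not in the class, and its ratio was 1.69. Chromosome 20, with 8.13, was not in the class either, and its ratio was 3.18. Within the gene-poor class the ratio was 1.56 on chromosome 18, 1.14 on chromosome 13 and 0.919 on chromosome 4. Gene-rich chromosomes make up 10.4% of the territory and held 9.86% of siNeg peaks and 20.8% of siDNAJC9 peaks. Gene-poor chromosomes make up 13.7% and held 13.8% and 8.85%. Of the 15.4 Mb by which the siDNAJC9 list was longer, 37.7% lay on the gene-rich and 1.78% on the gene-poor chromosomes. The rest of the difference lay on the other chromosomes, and without the gene-rich class the density was still 7.52 with siNeg and 11.3 kb per Mb with siDNAJC9, a ratio of 1.504.

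The CENP-A lists of siDNAJC9-transfected cells had the opposite leaning. Outside the centromeric windows, each the 5 Mb of a chromosome with the greatest length under siNeg CENP-A replicate 1 peaks, the gene-rich over gene-poor ratio was 0.453 and 0.466 in replicates 1 and 3, against 3.41 in the siDNAJC9 IgG list and 0.968 in the siNeg IgG list. Their rho with gene density was -0.397 and -0.356, against 0.874 for siDNAJC9 IgG. All lists of an siRNA share the further IgG library that they were called against, and its part in these values was not tested.

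The siDNAJC9 IgG peaks also gathered toward chromosome ends, and the siNeg peaks did not. Density was measured outside the centromeric windows by distance from the nearer end, without counting the short arm ends of the acrocentric chromosomes (13, 14, 15, 21 and 22) or the limit on chromosome 10 as ends. With siDNAJC9 the outermost Mb held 42.8 kb per Mb and the next 48.6 kb per Mb. Density was 32.7 kb per Mb from 2 to 5 Mb, 20.3 from 5 to 10 Mb, 14.9 from 10 to 20 Mb, 11.7 from 20 to 40 Mb and 8.87 beyond 40 Mb. With siNeg the same zones held 6.16, 4.97, 7.04, 7.42, 7.84, 7.51 and 7.99 kb per Mb, slightly less near the ends than inside. Beyond 40 Mb the lists were close to each other on all but the gene-rich chromosomes, at 8.10 and 8.80 kb per Mb, but not on the gene-rich chromosomes, at 3.55 and 11.5 kb per Mb.

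The outer 5 Mb of the chromosomes make up 7.01% of this territory and held 5.87% of the siNeg and 20.01% of the siDNAJC9 IgG length. Outer over inner density was 0.827 with siNeg and 3.32 with siDNAJC9. The pattern was present in both kinds of chromosome, with a siDNAJC9 ratio of 2.71 on the gene-rich and 3.15 on all others. On the gene-rich chromosomes the outer zone held 63.9 kb per Mb with siDNAJC9 and 5.66 kb per Mb with siNeg. Over all autosomes the CENP-A lists of both siRNAs leaned the other way. Outer over inner ratios in replicates 1 and 3 were 0.39 and 0.381 with siDNAJC9 and 0.577 and 0.481 with siNeg. On the gene-rich chromosomes alone siNeg CENP-A replicate 1 did not, at 1.11.

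**Figure D4:**
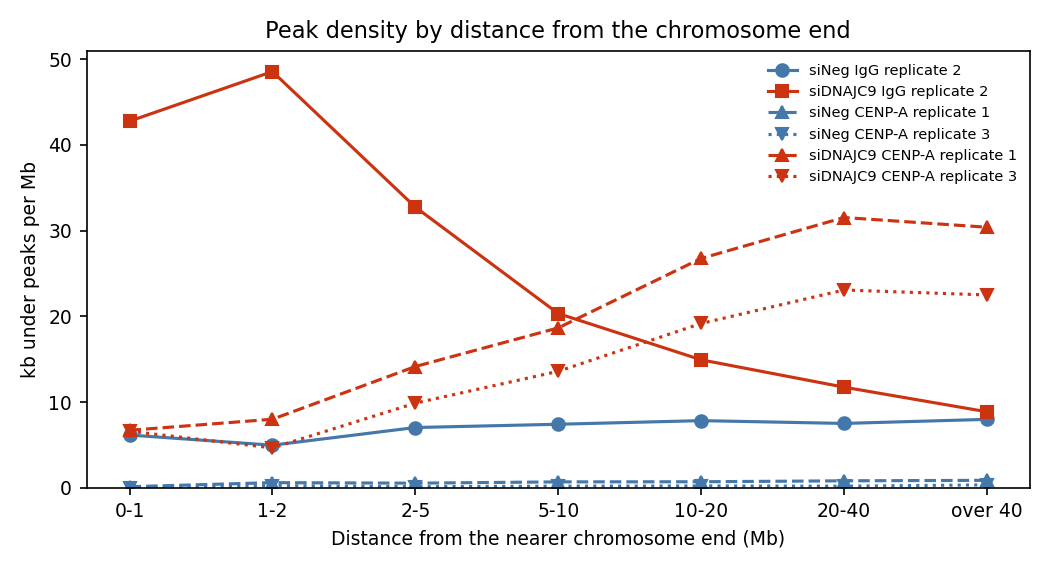
Density in kb under peaks per Mb (y) in 7 zones of distance from the nearer chromosome end in Mb (x, unequal zones), outside the centromeric windows, with a line for each of the 6 libraries. The siDNAJC9 IgG line falls from 42.8 and 48.6 kb per Mb in the outer zones to 8.87 beyond 40 Mb, the siNeg IgG line stays between 4.97 and 7.99, and the siDNAJC9 CENP-A lines are lower in the outer 5 Mb than further in, with outer over inner ratios of 0.39 and 0.381.

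The fullest windows showed both leanings. Of the 282 windows in the fullest 10% of the siDNAJC9 IgG list, 34.4% lay on gene-rich chromosomes and 32.6% within 5 Mb of an end, where 10.4% and 7.02% of all windows lie. For the fullest 10% of the siNeg list 31 of 282 lay on gene-rich chromosomes and 21 (7.45%) near an end. Of the 56 siDNAJC9 windows with at least 10 peaks, 26 were on gene-rich chromosomes and 40 within 5 Mb of an end. Clustering was not limited to these places: the variance over the mean with siDNAJC9 was 2.13 without the outer 5 Mb, 2.28 without the gene-rich chromosomes and 2.26 on the gene-poor chromosomes, against 1.15, 1.13 and 1.21 with siNeg.

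Both IgG lists were sparse at centromeres, where the CENP-A peaks are densest. The 22 centromeric windows, 110 Mb in all, held 40 siNeg IgG peaks (2.06 kb per Mb) and 86 siDNAJC9 IgG peaks (4.34 kb per Mb), against 110 and 86.1 kb per Mb for siNeg CENP-A replicates 1 and 3. The windows were picked on the peaks of replicate 1, so the value of that replicate is high by construction. The short arms of the acrocentric chromosomes, 60.4 Mb up to the windows, held 15 and 33 IgG peaks (1.44 and 3.79 kb per Mb). The longest stretches with no IgG peak also lay near these regions. On chromosome 9 no siNeg peak was listed over 32.5 Mb (48281001 to 80829000) and no siDNAJC9 peak over 28.6 Mb (48357001 to 76907000). The next longest were on chromosome 1, of 16.4 Mb from 128747001 to 145152000 with siNeg and of 14.4 Mb from 128353001 to 142740000 with siDNAJC9, and on chromosome 16, of 13.7 and 13.4 Mb. These stretches were picked after their values were seen. Chromosomes 1, 9 and 16 are known for large blocks of satellite heterochromatin beside the centromere, and how many reads can be placed uniquely there was not measured.

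The lists rarely marked the same place. They shared 86 stretches of 0.281 Mb in all, with 1 bp enough to count, which touched 2.32% of siNeg peaks (exact 95% binomial interval 1.86 to 2.85) and 1.40% of siDNAJC9 peaks (1.12 to 1.73). These intervals, and those given further on, cover counting error only. Of siNeg peak bases, 1.33% lay under siDNAJC9 peaks, where the siDNAJC9 list covers 1.28% of the same chromosomes when each is weighted by its siNeg length, a ratio of 1.04. Only 5 intervals were identical in both lists.

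At the 1-Mb scale the lists were compared too. Both had a peak in 1532 windows, only siNeg in 441, only siDNAJC9 in 549 and neither in 299. Of the 282 fullest windows of each list, 23 (8.16%) were shared, where each set is 10% of all windows and unrelated sets of this size would share about 10%. Spearman's rho of kb per window between the lists was 0.0615 over 2821 windows. The CENP-A replicates, which share siRNA and antibody, gave 0.86 with each other with siDNAJC9 and 0.388 with siNeg. These figures are descriptions over windows of the same genome, and there was no IgG replicate of the same siRNA to compare. The longest shared stretches were 7 kb on chromosome 13 (44783001 to 44790000), 6 kb on chromosome 1 (185280001 to 185286000), 6 kb on chromosome 7 (133611001 to 133617000), and 5 kb on chromosomes 1 (175557001 to 175562000) and 2 (137094001 to 137099000). No shared stretch exceeded 7 kb, and none of these 5 held a CENP-A peak of siNeg. The stretch on chromosome 7 held 1 CENP-A peak of siDNAJC9 replicate 1. That starting at 175557001 on chromosome 1 held 1 of siDNAJC9 replicate 3.

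Some IgG peaks lay under CENP-A peaks of the same siRNA, which asks how much of the CENP-A signal and the background coincide. With siNeg, 41 of 3713 IgG peaks (1.10%, exact 95% binomial interval 0.794 to 1.495) shared at least 1 bp with a CENP-A peak of either replicate. With siDNAJC9, 573 of 6127 did (9.35%, 8.63 to 10.1). Peaks under both replicates numbered 6 and 178. The CENP-A lists differ in length in the same direction: they cover 0.545% of the territory with siNeg and 3.90% with siDNAJC9 when the replicates are joined.

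Set against the CENP-A share of the same chromosomes, the values were 1.79 with siNeg and 1.93 with siDNAJC9 over the whole territory. Outside the centromeric windows the order was the other way. Of siDNAJC9 IgG peak bases, 7.03% lay under CENP-A there, where CENP-A covers 3.49% of the same chromosomes, 2.02 times as much as its share. Of siNeg IgG peak bases, 0.848% lay under CENP-A there, where it covers 0.102%, which is 8.35 times. The siNeg value rests on 36 peaks. By replicate it was 8.85 (30 peaks) and 8.53 (9 peaks), and with siDNAJC9 it was 1.99 (409 peaks) and 2.12 (329 peaks).

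Tested over the CENP-A libraries, the mean was 8.69 ± 0.225 (SD, n = 2) with siNeg and 2.06 ± 0.0933 with siDNAJC9, a log2 ratio of -2.08. The exact two-sided permutation test gave p = 0.333, the smallest that 2 libraries against 2 allow, so the design cannot reach 0.05. The replicates of each siRNA did not overlap, but both were set against the same IgG list. With the centromeric windows included the log2 ratio was 0.58, so the direction holds only outside centromeres, where siNeg CENP-A peaks are few (380 and 115).

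Crossing the siRNAs gave lower values of this ratio outside the centromeric windows. The siNeg IgG peaks lay under siDNAJC9 CENP-A peaks 1.46 and 1.37 times as much as the CENP-A share, although more of them touched a peak there (5.96% and 4.33%, against 0.817% and 0.245% for siNeg CENP-A), and the siDNAJC9 CENP-A lists are far longer. The siDNAJC9 IgG peaks lay under siNeg CENP-A peaks 0.738 times as much in replicate 1, with 10 peaks. With replicate 3, 0 of 6041 touched a peak, which allows a share of up to 0.061%. That CENP-A list covers only 0.0224% of the same chromosomes, too little to tell 0 from its share. Over the whole territory the siNeg IgG values were 1.67 and 0.905 for siNeg CENP-A and 1.41 and 1.33 for siDNAJC9 CENP-A, so for siNeg replicate 3 the order of own and other siRNA does not hold there. The lists of an siRNA share a further IgG library in their calling, and its part in this was not tested.

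**Figure D5:**
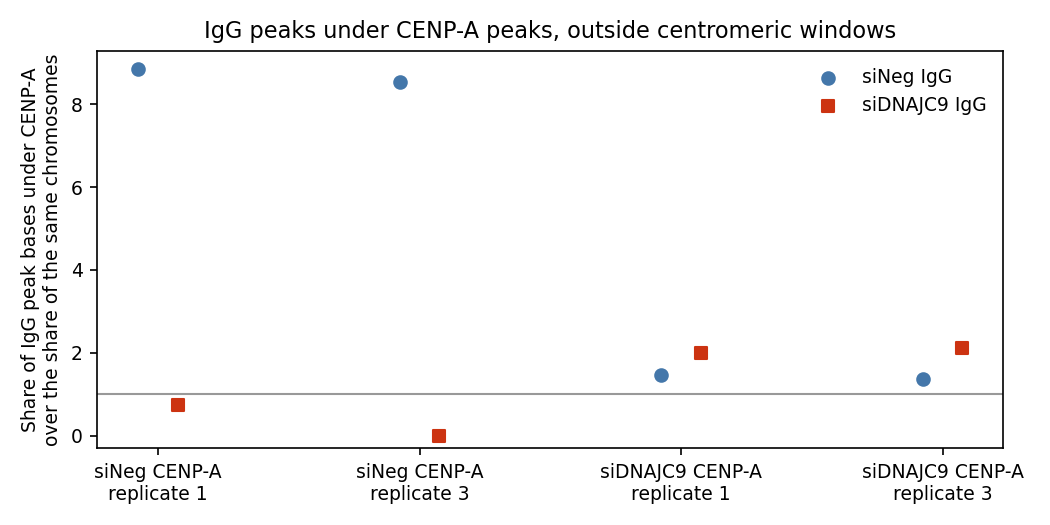
Share of IgG peak bases under the peaks of each CENP-A library (x) divided by the share of the same chromosomes under those peaks (y, linear, grey line at 1), outside the centromeric windows, for siNeg (circles) and siDNAJC9 (squares) IgG, 1 library each. The siNeg IgG points are at 8.85 and 8.53 over siNeg CENP-A and at 1.46 and 1.37 over siDNAJC9 CENP-A, and the siDNAJC9 points at 0.738 and 0 and at 1.99 and 2.12.

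The overlapping subset was close in size to the other IgG peaks with siDNAJC9 and wider with siNeg. With siDNAJC9 its mean width was 6.03 kb against 5.95 kb for the rest, and 27.2% against 24.1% were at least 7 kb wide. With siNeg the mean was 6.29 kb against 5.67 kb, and 41.5% of 41 peaks against 17.8% were at least 7 kb wide. Wider peaks have more bases that can touch another peak. The whole IgG peak lay under CENP-A in 229 of 573 cases with siDNAJC9 and in 13 of 41 with siNeg, and 55 and 5 had exactly the same start and end as a CENP-A peak.

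By chromosome, the siDNAJC9 subset made up a smaller share of IgG peaks where that list was densest. Of the 573 peaks 10.6% were on gene-rich chromosomes, against 21.8% of the rest. On gene-rich chromosomes 4.79% of IgG peaks overlapped CENP-A (exact 95% binomial interval 3.68 to 6.11), and on gene-poor chromosomes 11.4% (8.88 to 14.4). CENP-A covers less of the gene-rich class, 2.23% against 3.88%, centromeric windows included. In both classes the IgG bases lay under CENP-A more than that share, 1.54 and 2.25 times as much. Chromosome 19 was lowest with 8 of 368 peaks (2.17%). With centromeric windows included, it was the only autosome under its CENP-A share, at 0.782 times. Its CENP-A density in siDNAJC9 replicates 1 and 3 was 16.5 and 13.4 kb per Mb with that window, and 6.95 and 5.12 outside it. The ratios by class and chromosome were not computed outside the windows, so 0.782 does not describe the arms alone. The highest shares were on chromosomes 10 (14.3%), 12 (14.2%), 3 (13.5%), 6 (13.4%) and 13 (12.9%), and the next lowest on chromosomes 22 (4.93%), 16 (5.32%), 21 (5.68%) and 20 (6.17%). With siNeg 6 overlapping peaks lay on gene-rich and 3 on gene-poor chromosomes, too few to compare.

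CENP-A was also sparser in the fullest siDNAJC9 IgG windows. Those windows lay more often on gene-rich chromosomes and near chromosome ends, where the siDNAJC9 CENP-A lists were sparser as well. The values below were not separated from these leanings. In the fullest 10% of siDNAJC9 IgG windows, CENP-A covered 12.8 and 9.77 kb per window in siDNAJC9 replicates 1 and 3, against 30.9 and 22.9 kb in the other windows. In the fullest 10% of siNeg IgG windows the same CENP-A lists covered 32.1 and 24.5 kb, against 28.8 and 21.3 kb elsewhere. Spearman's rho of kb per window between the siDNAJC9 IgG list and the CENP-A lists of siDNAJC9 was -0.0676 and -0.0773 over 2821 windows. These correlations are close to 0, and the lower CENP-A length was seen in the fullest windows.

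The median distance from an IgG peak to the nearest CENP-A peak of its siRNA was 2084 kb with siNeg and 115 kb with siDNAJC9. Beyond 1 Mb lay 70.3% of siNeg and 5.06% of siDNAJC9 IgG peaks. A further 13 and 384 peaks lay within 10 kb of a CENP-A peak without touching it. These distances move with the number of CENP-A peaks, 1204 and 786 in the siNeg lists and 10702 and 8428 in the siDNAJC9 lists of this territory.

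Outside the centromeric windows, only 3 siNeg IgG peaks lay under CENP-A of both replicates. At chromosome 18 from 48040001 to 48049000 the IgG peak and both CENP-A peaks had the same 9 kb, and at chromosome 2 from 87833001 to 87842000 a 9 kb IgG peak lay within CENP-A peaks of 10 kb in both replicates. The third shared 3 kb, at chromosome 14 from 62147001 to 62152000. With siDNAJC9, 174 peaks did so. Those with the most shared bases were on chromosome 8 (121936001 to 121944000), chromosome 12 (105191001 to 105199000) and chromosome 17 (60711001 to 60719000), each with 8 kb under both replicates, followed by 7 kb at chromosome 1 from 230775001 to 230782000 and from 233569001 to 233577000. At these 5 places the CENP-A peaks of replicates 1 and 3 were 7 to 17 kb wide, so the listed CENP-A region was of the order of the IgG peak itself.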

How the data were processed

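CUT&RUN peaks of 6 libraries were analysed: 2 IgG and 4 CENP-A. The deposited lists give chromosome, start and end of each peak, all at whole kb, and no score, count or p-value. Per the study's methods, the authors aligned reads to T2T-CHM13v2.0, removed duplicates and called broad peaks with GoPeaks per library after spike-in normalization. Whether a region is listed therefore depends on the control library, on the spike-in scaling and on the caller's limit, and no depth can be read from the lists. The submitters' processing notes name Bowtie, bcl2fastq and T2T-CHM13.

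Groups and replicate numbers came from the sample titles. Widths, gaps, kb covered per Mb, peaks per 1-Mb window (by midpoint, last windows under 0.5 Mb left out) and overlaps were computed with scipy 1.17.1, pandas 2.3.3 and numpy 2.4.6 under Python 3.11.15, on the autosomes without chromosome 10 from 60 Mb on. Scripts were tested on simulated data. Windows were compared on log2(kb + 5) with a 2-fold limit. Shares carry exact 95% Clopper-Pearson intervals, and the only test was an exact two-sided permutation test over the CENP-A libraries. The study calls those replicates biological repeats, while the labels name no separate cultures, so the test compares these libraries only. With 2 libraries against 2 its p cannot fall below 0.333. It holds no variation between IgG libraries, as each siRNA had 1 IgG list. Alternatives varied peak width, joining, window size, pseudocount, scaling, chromosome classes, overlap rule, centromeric windows and replicates.

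Regions named were, by rule, the 5 fullest windows and 5 widest peaks of each IgG list, the 5 windows most different in each direction, the 5 longest shared stretches and the 5 IgG peaks per siRNA with most bases under both CENP-A replicates. Members, chromosome classes and rules were chosen with earlier results of these data known. Sequence, GC content and genes under peaks are not given, since neither the T2T-CHM13v2.0 sequence nor its gene models were used. Gene density used only the number of RefSeq protein-coding genes per chromosome on GRCh38.p14 (18392 genes, without chromosome 10), with no coordinates.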

Additional observations from a re-analysis of the deposited data

Results flagged for a closer look

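The number and length of CENP-A peaks relative to IgG peaks lay on opposite sides of 1 under the siRNAs. Outside the centromeric windows, CENP-A over IgG peak number was 0.103 and 0.0313 in siNeg replicates 1 and 3, and 1.68 and 1.31 in siDNAJC9 replicates 1 and 3. In covered length the ratios were 0.104 and 0.0342 with siNeg, and 2.11 and 1.55 with siDNAJC9. Every siNeg library thus had less CENP-A than IgG length and every siDNAJC9 library more, although the siDNAJC9 IgG list was itself the longer. This difference was not tested, and the libraries of an siRNA were each set against 1 IgG list.

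IgG peaks were also listed outside the autosomes described. On chromosome X they stood at 0.45 per Mb with siNeg and 0.581 per Mb with siDNAJC9, below the 1.32 and 2.17 of the autosomes. On chromosome 10 from 60 Mb on they stood at 5.02 and 9.23 per Mb, above the autosomes in both lists.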

How the results depend on the processing

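Of 66 alternatives to 14 results, 48 stayed within the limits set, 17 moved the value and 1 reversed it. With centromeric windows included, the log2 ratio of CENP-A enrichment over IgG peaks was 0.58 in place of -2.08, with enrichments of 1.67 and 0.905 in siNeg and 1.88 and 1.98 in siDNAJC9 replicates 1 and 3. Leaving out a replicate gave -2.15 to -2.01. With peaks of at least 7 kb it was -4.19, with enrichments of 25.4 and 35.7 in siNeg and 1.78 and 1.57 in siDNAJC9. These siNeg values rest on very few peaks. Of 672 siNeg IgG peaks of that width, 0.595% overlapped CENP-A peaks of that width, even with the centromeric windows included. The replicate block gave -2.08 (exact sign-flip p = 0.5, the smallest for 2 pairs), and the libraries share only a number. Peaks of at least 7 kb numbered 672 (5.18 Mb) with siNeg and 1494 (12.1 Mb) with siDNAJC9, and then overlapped CENP-A in 0.595% and 5.15%. Windows of 5 Mb gave a variance over mean of 1.78 and 7.87, and 177 windows higher and 59 lower with siDNAJC9 of 563. Scaling to equal length gave 513 windows higher and 700 lower (42.3% of those past 2-fold higher, against 63.7%). On log2(kb + 10), 273 were lower. Overlap of 50% of the siDNAJC9 IgG peak was found in 7.79%, and of 50% reciprocally in 6.79%. With 1 CENP-A replicate left out, overlap was 0.323% to 0.943% with siNeg, lowest without replicate 1, and 5.48% to 6.77% with siDNAJC9. These shares use fewer CENP-A peaks by construction, and other causes were not tested.

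No score or read count limits these lists further, so depth and thresholds could not be varied. Genes under IgG peaks, planned for an annotation of the same build, were not run.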
